A study of Rattus norvegicus with 12 samples.

Results

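The genes described here encode 8 proteins of calcium-triggered vesicle fusion: Syt1, Syt4, Syt7, Snap25, Stx1a, Vamp2, Cplx2 and Nsf. They were chosen by name, out of 14217 genes with a probe set of their own symbol. On the array they are represented by 15 of 31099 probe sets, those that carry 1 of these symbols and no other in the platform annotation. A probe set is a group of short DNA probes that are read together as 1 signal. Of the 15, 8 probe sets of 5 genes passed the filter on low values and entered the test, out of 18625 probe sets and 10680 genes tested. The 7 that did not pass belong to Syt4 (1 of its 2), Syt7 (all 3), Stx1a (both) and Cplx2 (its only one).

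RNA came from cultured anterior pituitary cells of adult female Sprague-Dawley rats, ovariectomized 2 weeks before, and each experiment pooled 13 to 15 pituitaries. Sedimentation at unit gravity gave a fraction of large cells, about 6% of the total, and 40 to 60% of this fraction stained for luteinizing hormone (LH), the hormone made by gonadotropes. All samples were kept in medium with 0.2 nM estradiol and 10% charcoal-treated fetal bovine serum. On culture day 3 the cells received 10 nM gonadotropin-releasing hormone (GnRH) or vehicle for 40 min, and 6 vehicle and 6 GnRH samples were hybridised to 1 array each. Cells were prepared 3 times, and each preparation, called enrichment set I, II or III, gave 2 vehicle and 2 GnRH samples. Samples are called vehicle 1 to 6 and GnRH 1 to 6 here: numbers 1 and 2 are set I, 3 and 4 set II, and 5 and 6 set III. The titles call each sample a biological replicate. Whether samples of a preparation were independent cultures is not stated there, so p-values measure the spread between these samples, which may be technical.

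Hormone is stored in granules and leaves the cell when a granule fuses with the plasma membrane. Fusion is driven by SNARE proteins, which zip together from both membranes: VAMP2 (synaptobrevin) sits on the granule, and syntaxin 1A (Stx1a) and SNAP-25 sit on the plasma membrane. Synaptotagmins bind calcium and membrane through C2 domains, and synaptotagmins 1 and 7 are calcium sensors that trigger fusion. Synaptotagmin 4 carries a substitution in a calcium-binding site and is found on maturing granules. Complexin 2 clamps and assists the assembled SNARE complex, and NSF is the ATPase that takes used complexes apart. In gonadotropes, GnRH acts through a Gq-coupled receptor that raises intracellular calcium, and this rise triggers the release of LH.

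Promoter windows were looked up in RefSeq (GRCr8), which held 6 of the 8 genes. Snap25 and Syt7 had no entry. Shown are the windows of Syt4, Vamp2 and Nsf, the genes with an entry whose brightest probe set exceeded background on at least 10 arrays. Each runs 5′ to 3′ on the gene's strand from 250 bases before to 50 bases after the start that the RefSeq promoter table uses. For Syt4 and Nsf this is the annotated end of the gene on that side, and for Vamp2 it lies inside the gene, which is annotated from base 54292423 of chromosome 10. Capitals mark TGACG (the short form of the cyclic AMP response element, on either strand) and GCGNGGGCG (the letters bound by EGR factors, on either strand).
Syt4, chr18:23320814-23321113, minus strand: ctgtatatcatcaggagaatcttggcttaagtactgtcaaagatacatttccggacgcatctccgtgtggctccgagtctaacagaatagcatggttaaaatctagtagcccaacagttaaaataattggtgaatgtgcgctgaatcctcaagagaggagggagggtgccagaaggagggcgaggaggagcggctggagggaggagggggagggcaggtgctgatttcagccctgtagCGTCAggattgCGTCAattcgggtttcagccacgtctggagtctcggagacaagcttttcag
Vamp2, chr10:54292539-54292838, plus strand: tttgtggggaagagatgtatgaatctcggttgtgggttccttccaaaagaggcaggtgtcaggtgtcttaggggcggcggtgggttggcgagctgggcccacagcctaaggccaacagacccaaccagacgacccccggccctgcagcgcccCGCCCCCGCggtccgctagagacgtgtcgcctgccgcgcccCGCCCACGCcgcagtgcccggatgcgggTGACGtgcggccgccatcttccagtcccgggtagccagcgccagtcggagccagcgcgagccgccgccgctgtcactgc
Nsf, chr10:89357334-89357633, minus strand: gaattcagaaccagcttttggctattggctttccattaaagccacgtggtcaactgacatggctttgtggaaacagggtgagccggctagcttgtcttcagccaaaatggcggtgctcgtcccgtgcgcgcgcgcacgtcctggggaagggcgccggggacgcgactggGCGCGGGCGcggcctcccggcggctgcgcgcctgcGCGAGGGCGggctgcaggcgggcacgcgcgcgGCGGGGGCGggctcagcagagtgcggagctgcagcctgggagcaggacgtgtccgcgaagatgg
The Syt4 window held TGACG at 2 places, at bases 239 and 250 of the window and both read as CGTCA, and no GCGNGGGCG. The Vamp2 window held TGACG at 1 place and GCGNGGGCG at 2, and the Nsf window held GCGNGGGCG at 3 and no TGACG. Over all 33469 rat promoter windows of this length, 21.2% hold TGACG and 4.98% hold GCGNGGGCG. The full element TGACGTCA, which contains TGACG (1.83% of windows), and the AP-1 letters TGANTCA (7.33%) were in none of the 6 members' windows. Nsf and Vamp2 have GC-rich windows (68.7% and 69.3% G or C) and Syt4 does not (51.3%). These matches are letters in a window, and binding was not measured.

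The arrays did not all report at the same contrast, and this touches every value below. The 18 control probe sets for bioB, bioC, bioD and cre, called spike-ins here, were dim on the 4 arrays of set I and on vehicle 5 (2264 to 11705, geometric mean signal) and far brighter on the other 7 arrays (53482 to 320024). A further 27 control probe sets, for the bacterial genes dap, lys, phe, thr and trp, served as background, and whether such RNA was added to the samples is not given. The third highest of them on an array is called its background level. It was 69.0 to 96.0 on the 5 arrays with dim spike-ins, 230.0 to 355.8 on 6 of the others and 649.9 on vehicle 3, the array least like the rest (median Spearman correlation 0.38, against 0.62 to 0.71). Of 7 gonadotrope markers on the array, Lhb (12563 to 152897), Cga (17041 to 371592), Fshb and Foxl2 exceeded background on 12 arrays, Nr5a1 on 10, Dmp1 on 6 and Gnrhr on 5. Some markers of other cells were bright as well, such as Gh1 of somatotropes (16159 to 1055840) and Prl of lactotropes (18279 to 122433). Others of the same list were dimmer: Pou1f1 exceeded background on 12 arrays, Ghrhr on 10 and Drd2 on 6. Pomc of corticotropes exceeded it on 6 arrays and Pecam1 of endothelial cells on 3. Of 10 markers of neurons and pituicytes, which share SNARE genes with endocrine cells, 9 were tested. Their summed signal was 4187 to 6355 in vehicle samples and 4409 to 6808 in GnRH samples, and none of the 10 was at 0. Gap43 exceeded background on 12 arrays, Rbfox3 on 7 and Avp on 2. Their part in the members' values was not tested. In such a mixture fewer cells of a type and less RNA per cell cannot be told apart, and levels of different probe sets were not set against each other.

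Snap25 and Syt4 stood clear of background on every array, and no other of the 15 probe sets did. Syt4 probe set 1375877_at gave 1.98 to 173 times the background level of its array, with a median of 24.8. Snap25 probe set 1387073_at gave 2.26 to 128 times, with a median of 19.7. The lowest ratio of each came from vehicle 3. Both genes thus had a measurable baseline in every vehicle sample.

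**Figure D1:**
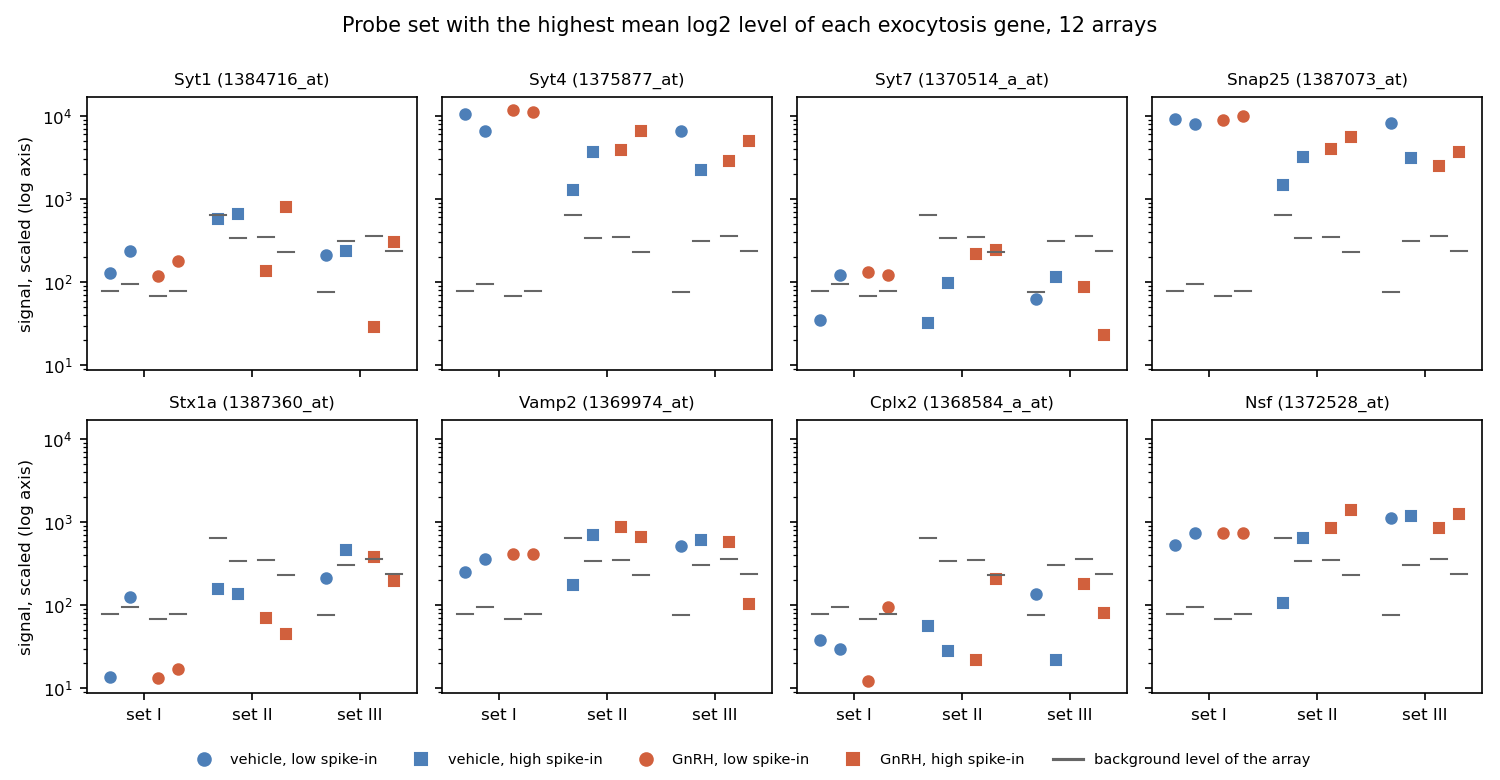
Signal (log axis) of 1 probe set for each of the 8 genes on the 12 arrays, grouped by enrichment set; blue is vehicle, red is GnRH, circles are arrays with dim (low) spike-ins, squares those with bright (high) ones, and grey bars mark each array's background level. Syt4 and Snap25 lie above the bar on 12 arrays, Nsf on 11 and Vamp2 on 10, while Syt7, Stx1a and Cplx2 lie above it on 4, 4 and 2.

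In vehicle samples the Syt4 signal was 10562 and 6652 in set I, 1287 and 3715 in set II, and 6669 and 2236 in set III. In GnRH samples it was 11949 and 11067, then 3924 and 6625, then 2875 and 4957. Within sets I and II each GnRH sample exceeded each vehicle sample, and within set III the GnRH samples lay between the 2 vehicle samples. The log2 difference, GnRH minus vehicle, was 0.55 ± 0.35 (SE, n = 6 per group), a 1.46-fold ratio with a 95% interval from 0.875 to 2.43. It did not exceed the spread (limma adjusted p = 0.981; exact permutation of agents within sets, two-sided p = 0.213). By set it was 0.46 in I, 1.21 in II and -0.03 in III. With only 2 samples per agent in each set, groups often separate fully by chance, here and for the probe sets below. The share of all probe sets that do so is not given.

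In set III the spike-in level differed within the vehicle group: vehicle 5 had dim spike-ins, and vehicle 6, GnRH 5 and GnRH 6 bright ones. Among the 5 arrays with dim spike-ins, each GnRH sample was above each vehicle sample for Syt4 (6 of 6 pairs). Among the 7 with bright spike-ins this held in 11 of 12 pairs. The log2 differences were 0.57 and 0.99 within these kinds of array, without regard to set. This split was not planned beforehand, and the 2 GnRH samples with dim spike-ins are both of set I. The pairs with GnRH higher, dim then bright, were 1 of 6 and 4 of 12 for Syt1 and for Nsf 1369689_at. For Nsf 1369690_at they were 6 of 6 and 4 of 12. For Vamp2 they were 4 of 6 and 6 of 12 (1369974_at), and 3 of 6 and 8 of 12 (1371160_at). With the log2 spike-in level added to the model beside the set, the Syt4 difference was 0.84 (limma unadjusted p = 0.00814, adjusted p = 0.648). In that fit 1403 of 18625 probe sets had an unadjusted p under 0.05, against 643 in the main fit. The Syt4 difference was 0.54 without vehicle 3 and vehicle 5 (adjusted p = 0.923), a choice made after the data were seen. Leaving out single arrays moved it from 0.27 (without vehicle 3) to 0.81 (without vehicle 5). Syt4 did not pass the threshold in any of 29 alternative settings. The part of the spike-in level in these differences was not tested further.

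Snap25, the plasma-membrane SNARE, followed Syt4 from array to array. Its signal in vehicle samples was 9099 and 8085 in set I, 1471 and 3236.5 in set II, and 8321 and 3147 in set III. In GnRH samples it was 8840.1 and 9902, then 3997 and 5506, then 2466 and 3658. The GnRH samples were above the vehicle samples in set II without overlap, and the groups overlapped in sets I and III. The log2 difference was 0.15 ± 0.34 (SE over 6 and 6 arrays; adjusted p = 0.993; exact within-set p = 0.667, two-sided), with an interval of 0.677 to 1.83 for the fold. By set it was 0.13, 1.10 and -0.77. It turned to -0.11 without vehicle 3 and to -0.02 without GnRH 4, and was 0.48 with the spike-in level in the model and 0.44 without vehicle 5. Within arrays of like spike-in level, GnRH samples were higher in 5 of 6 and 10 of 12 pairs.

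**Figure D2:**
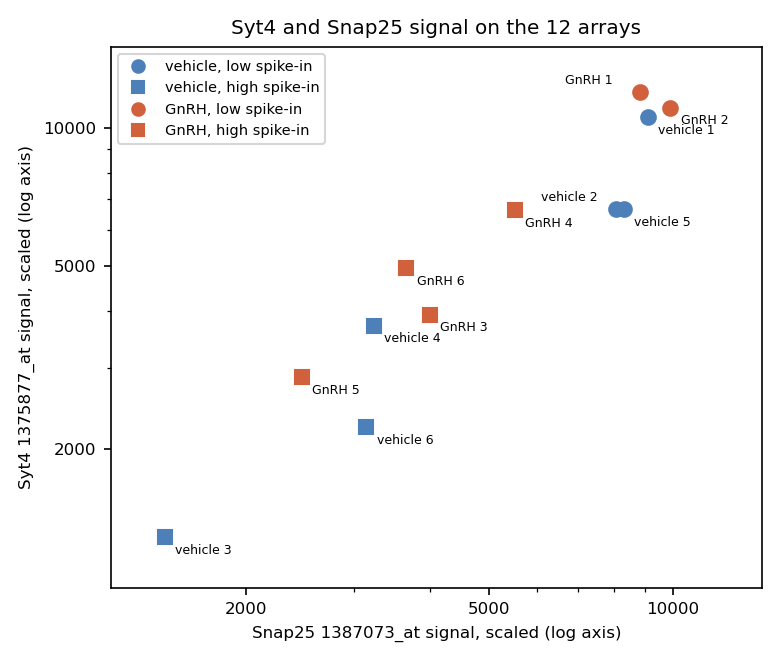
Syt4 signal against Snap25 signal on the 12 arrays (both axes log), coloured by agent and shaped by spike-in level. The 5 arrays with dim spike-ins form the upper right group, vehicle 3 is lowest on both axes, and across arrays a higher Snap25 signal goes with a higher Syt4 signal.

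Over the 12 arrays the log2 levels of Syt4 and Snap25 correlated at r = 0.95, and at 0.89 after the mean of each set was removed. These points share arrays that differ in spike-in level. The geometric mean signal was 9087 for Syt4 and 8827 for Snap25 on the 5 arrays with dim spike-ins, and 3266 and 3135 on the other 7, so that each was about 2.8 times lower there (2.78 and 2.82). Nsf moved with both when set means were removed (r = 0.77 with Syt4 and 0.75 with Snap25), and less so without that step (0.43 and 0.43). Nsf (107), Syt4 and Snap25 each had their lowest signal in vehicle 3, and its part in these r was not tested. Syt1 did not track the others, with r from -0.39 to 0.20 against each of the 4 after set means were removed.

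The levels of Syt4 and Snap25 were also set side by side between cell preparations. Mean vehicle signal was 8607, 2501 and 4453 in sets I, II and III for Syt4, and 8592, 2354 and 5734 for Snap25. Set I was highest for both, and in each gene its 4 arrays were above those of set II without overlap. The moderated F test between sets gave adjusted p = 0.0555 for Syt4 and 0.0660 for Snap25 (limma, all 12 arrays), so 0 of the 8 tested probe sets passed, where 6.02% of all probe sets tested did. With p left unadjusted, 2 of 8 fell under 0.05, against 27.8% of all. Both genes passed without vehicle 3 (adjusted p = 0.0352 and 0.0494) and without vehicle 5 (0.0113 and 0.00996). In these fits 1648 and 2332 of all 18625 probe sets passed for sets, against 1122 in the main fit. With the spike-in level in the model Syt4 and Snap25 did not pass (0.647 and 0.742), and only 26 of 18625 probe sets passed for sets in that fit. Set and spike-in level overlap: all of set I has dim spike-ins and all of set II bright ones.

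A second Syt4 probe set, 1387662_at, stayed under the background level, though it exceeded the geometric mean of the background control probe sets on 6 arrays. It ran from 8.31 to 161 over the 12 arrays, at most 0.457 times the background level, and exceeded that level on 0 of them. It was not tested, and no fold is given for it. All Syt4 values above thus rest on 1 probe set.

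**Figure D3:**
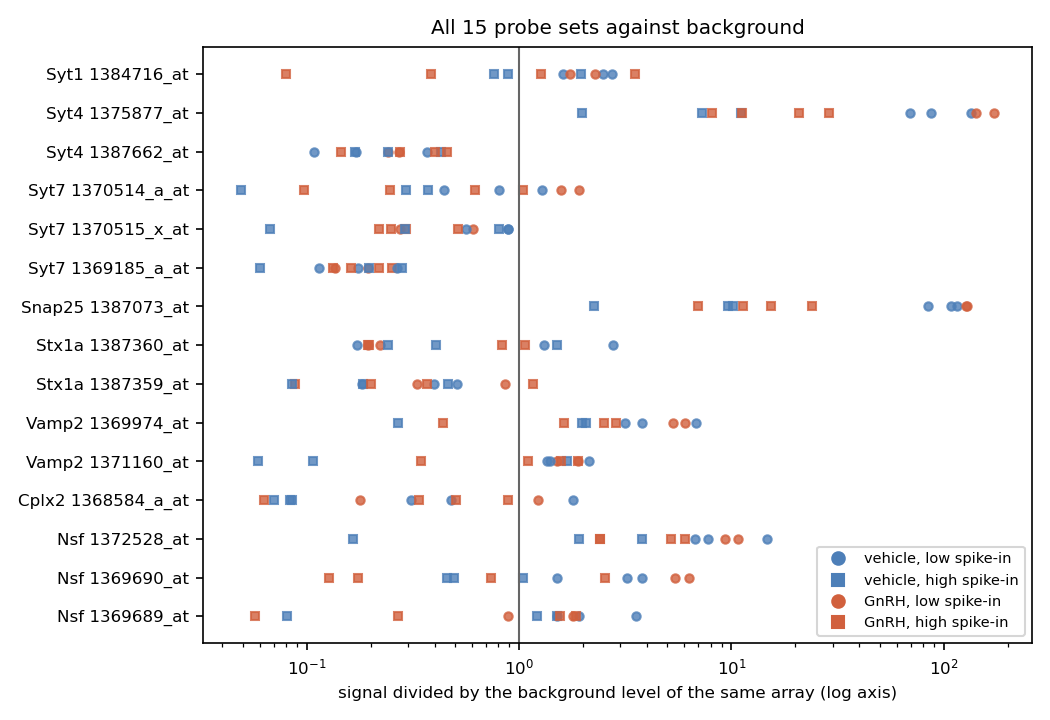
Signal of each of the 15 probe sets divided by the background level of the same array (log axis; 1 point per array, colours and shapes as agent and spike-in level). Syt4 1375877_at and Snap25 lie right of 1 on all 12 arrays, whereas 3 probe sets, Syt4 1387662_at and 2 of Syt7, lie left of 1 on all 12.

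Nsf, the ATPase that recycles SNAREs, has 3 probe sets, and they disagreed in direction. The brightest, 1372528_at, was above background on 11 arrays. Its vehicle signals were 531 and 748 in set I, 107 and 646 in set II, and 1127 and 1168 in set III. Its GnRH signals were 743 and 732, then 848 and 1383, then 856 and 1236. The 2 GnRH samples exceeded the 2 vehicle samples in set II, where vehicle 3 was the lowest of all arrays, and the groups overlapped in sets I and III. The log2 difference was 0.67 ± 0.43 (SE over 6 and 6 arrays; adjusted p = 0.981; exact within-set p = 0.167, two-sided), with 0.22, 1.95 and -0.16 by set. It was 0.21 without vehicle 3. Within arrays of like spike-in level, GnRH samples were higher in 2 of 6 pairs (dim) and 10 of 12 pairs (bright). The other probe sets, 1369690_at and 1369689_at, gave -0.17 ± 0.66 and -0.67 ± 0.69 and were above background on 7 and 8 arrays.

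Vamp2, the granule SNARE, was near or above background on most arrays. Probe set 1369974_at gave vehicle signals of 249 and 364 in set I, 176 and 697 in set II, and 523 and 609.7 in set III. Its GnRH signals were 416 and 413, then 883 and 655, then 577 and 104. In set I the GnRH samples were above the vehicle samples, in set II they overlapped, and in set III GnRH 6 was the lowest of all 12 arrays. The log2 difference was 0.13 ± 0.50 (SE over 6 and 6 arrays; adjusted p = 0.999; exact within-set p = 0.685), with 0.44, 1.07 and -1.12 by set. It was -0.22 without vehicle 3 and 0.57 without GnRH 6.

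The other Vamp2 probe set, 1371160_at, had the largest difference of the 8 tested, 0.87 ± 0.62 (log2, SE; limma adjusted p = 0.981; exact p = 0.296, two-sided, n = 6 per group). Its difference by set was -0.23, 1.13 and 1.71. In set III vehicle 6 gave 33.1 and GnRH 5 gave 123, both below the background level of their arrays, and vehicle 5 gave 108 and GnRH 6 gave 448, both above it. It was above background on 9 arrays. The direction in set I, where all 4 arrays were above background, was the opposite.

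Syt1, the classical calcium sensor of fast release, had a negative mean difference in each of the 3 sets and did not pass the test. Its vehicle signals were 127 and 239 in set I, 577 and 658 in set II, and 211 and 235 in set III. Its GnRH signals were 119.9 and 177, then 136 and 810.3, then 28.5 and 301. The groups overlapped in every set. The log2 difference was -0.70 ± 0.56 (SE over 6 and 6 arrays; adjusted p = 0.981; exact within-set p = 0.343, two-sided), with -0.24, -0.84 and -1.01 by set. Of all genes tested, 11.4% were lower in each set. Syt1 was above background on 8 arrays, and below it in vehicle 3, vehicle 6, GnRH 3 and GnRH 5. Without GnRH 5 the difference was -0.30.

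**Figure D4:**
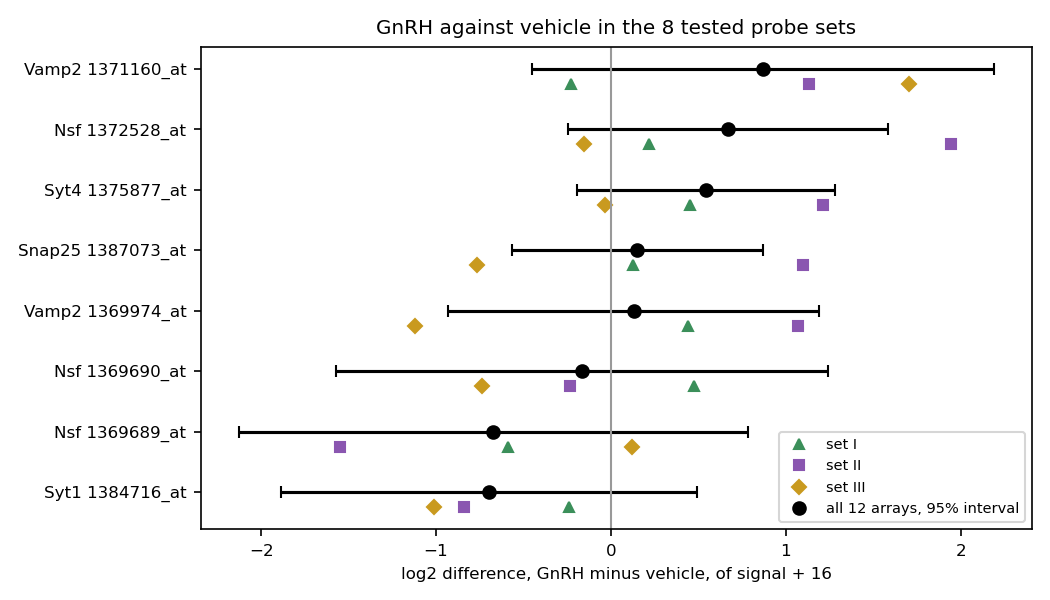
Log2 difference, GnRH minus vehicle, of the 8 tested probe sets: black points with 95% limma intervals are all 12 arrays, and coloured symbols are sets I, II and III. All 8 intervals include 0, and for Snap25 and Vamp2 1369974_at set II lies above 1 while set III lies below -0.7.

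Syt7, Stx1a and Cplx2 could not be measured well. Of the 3 Syt7 probe sets, 1370514_a_at was above background on 4 arrays and the others on 0. It ran from 31.9 to 122 in vehicle and from 23.0 to 241 in GnRH samples, and the groups did not overlap in sets I and II but did in set III. Its log2 difference was 0.61, with 0.78, 1.73 and -0.67 by set (exact within-set p = 0.259). Syt7 1370515_x_at (21.5 to 269) and 1369185_a_at (9.03 to 86.7) were under background on every array, and no difference is given for them.

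Stx1a, the syntaxin of the core complex, was above background on 4 arrays with 1387360_at and on 1 array with 1387359_at. The first ran from 13.6 to 464 in vehicle and from 13.4 to 379 in GnRH samples, with overlap in sets I and III, and differed by -0.81 (log2). Its exact within-set p was 0.0648, the smallest of the 15. The second ran from 17.5 to 412. Cplx2 was above background on 2 arrays, vehicle 5 (138) and GnRH 2 (95.7), and ran from 12.2 to 204 over all 12. Its difference was 0.58 (exact p = 0.333). The differences given for these 3 genes rest mostly on signals under background.

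None of the members passed the test of GnRH against vehicle. By limma, 0 of 8 tested probe sets had an adjusted p under 0.05 and 0 had an unadjusted p under 0.05. Over all probe sets tested, 0.00537% passed the adjusted threshold (1 of 18625) and 3.45% the unadjusted one. By the exact within-set permutation test, 0 of 15 were under 0.05, where 4.46% of all probe sets tested were. The smallest p that test can give is 0.00926. Of the 5 tested genes, each taken at its brightest probe set, 4 had a positive difference and 1, Syt1, a negative one. Over all genes 54.5% of differences were positive, and over all probe sets 53.6%. The median log2 difference was 0.15 over the 5 genes and 0.04 over all 10680. By set it was 0.22, 1.10 and -0.77, against 0.00, 0.21 and -0.08 over all genes.

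A model with an interaction asked whether the response differed between preparations. By moderated F test in limma, 0 of 8 probe sets passed at an adjusted or an unadjusted threshold of 0.05, against 0% and 5.36% of all. The smallest adjusted p was 0.927, for Snap25. Without vehicle 4, Nsf 1372528_at passed (adjusted p = 0.0306), together with 815 probe sets in all. In that fit vehicle 3 is the only vehicle sample of set II.

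The series' own rule for up-regulation asks for a 1.50-fold change and 50% concordance over array pairs. The software's change calls were left out here, and a pair counted when its ratio reached 1.50. The counts below may thus differ from the authors' own. Applied in this form to the 36 GnRH-vehicle pairs on the scale of signal plus 16, and mirrored, the rule marked 5 of the 15 probe sets. Up were Vamp2 1371160_at (58.3% of pairs) and Syt7 1370514_a_at (55.6%). Down were Syt1 (52.8%), Stx1a 1387360_at (58.3%) and Nsf 1369689_at (52.8%). Among the 8 tested, 1 was up and 2 down, and the rule marked 7.62% of all tested probe sets up and 7.60% down. Each of the 5 was under the background level on at least 3 arrays. Syt4 reached 50% of pairs with a fold of 1.46, just short of the rule in this form, and Nsf 1372528_at a fold of 1.59 with 38.9% of pairs.

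Genes of the same machinery were taken from 4 lists: other synaptotagmins and C2-domain sensors, other SNAREs, factors that assemble or take apart SNARE complexes, and vesicle membrane proteins. Of 100 listed genes, 87 were on the array and 65 were tested. By limma 0 passed for GnRH against vehicle, where 0.00936% of all genes did. Without adjustment, 1 higher and 1 lower gene of 65 had p under 0.05, against 3.32% of all. In all 39 were higher and 26 lower, with a median log2 difference of 0.11. Over all genes tested 54.5% were higher, with a median of 0.04, and the counts by list below stand beside that share.

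Among other SNAREs, 11 of 25 were higher. Vamp7, a SNARE of late endosomes and lysosomes, differed by -1.36 ± 0.51 (log2, SE; limma adjusted p = 0.981), with -0.51, -2.43 and -1.14 by set. Vamp7 exceeded background on 5 arrays, the 5 with dim spike-ins, so all signals of set II, and those of set III other than vehicle 5, were under background. Stx12, an endosomal syntaxin, differed by 0.94 ± 0.40 (limma adjusted p = 0.981), with 0.70, 2.08 and 0.05 by set. It was above background on 9 arrays and under it in vehicle 3, vehicle 4 and GnRH 3 of set II. Gosr1, a Golgi SNARE above background on all 12, differed by 0.65. These 3 had the smallest p of that list. None of the 3 passed after adjustment over all probe sets.

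Among vesicle membrane proteins, 7 of 10 were higher. Syp, which encodes synaptophysin, differed by 0.66 ± 0.34 (log2, SE; limma adjusted p = 0.981), with 0.84, 0.43 and 0.72 by set. Syp was above background on 12 arrays. Syn2, a synapsin above background on 9 arrays, differed by -0.99, and Sypl1, a synaptophysin relative of wide expression, by 0.64. By set Syn2 gave 0.14, -2.17 and -0.95, and Sypl1 0.27, 2.73 and -1.09. Among the assembly and disassembly factors 14 of 19 were higher, and the smallest p belonged to Stxbp3 (0.45), a Munc18 protein that binds syntaxins, Cplx1 (0.73), the other main complexin, above background on 9 arrays, and Napa (-0.27), the adaptor through which NSF binds SNAREs. By set Stxbp3 gave 0.67, 1.02 and -0.34, Cplx1 0.42, -0.20 and 1.96, and Napa -0.49, 0.01 and -0.33. Among other synaptotagmins and C2 sensors 7 of 11 were higher, with Syt15 at 0.49, Cadps, a priming factor of dense-core granules, at 0.60, and Syt17 at 0.38. By set Syt15 gave 0.54, 0.08 and 0.83, Cadps -0.05, 2.55 and -0.69, and Syt17 -0.06, 1.29 and -0.07. In vehicle 3 of set II, Cadps (83.7) and Syt17 (379) were under the background level (649.9).

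Between sets, 8 of 65 genes passed the moderated F test in limma, where 7.11% of all genes did. Doc2b, Syt5, Unc13a and Ptprn had a higher mean on the 7 arrays with bright spike-ins (limma adjusted p between sets 0.00611, 0.0250, 0.0383 and 0.0415). Doc2b and Syt5 are C2-domain calcium sensors, Unc13a encodes the priming factor Munc13-1, and Ptprn is a granule membrane protein. On the 5 arrays with dim spike-ins Doc2b exceeded background on 0, Unc13a on 1 and Syt5 on 3, so no fold is given for them. Ptprn was above background on 12 arrays and 2.61 times brighter where spike-ins were bright. Stx12, Stx4, Sv2b and Sypl1 had a lower mean there (limma adjusted p = 0.0108, 0.0340, 0.0143 and 0.0353). Stx4 and Sv2b, above background on 12 arrays, were at 0.407 and 0.445 times their level on the other arrays. Sypl1 was at 0.113 times, with vehicle 3 under background. Stx4 is a plasma-membrane syntaxin and Sv2b a vesicle glycoprotein. The 3 smallest p of each list also took in Syt8, Stx5, Stxbp5 and Napg, which did not pass (adjusted p = 0.0589, 0.0721, 0.106 and 0.163).

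The genes whose array-to-array pattern was most like each member were found among the 10680 genes, by Pearson r over the 12 arrays after the mean of each set was removed. For Syt4 they were Atp7a (r = 0.975) and Ccni (0.963), and for Snap25 Ndufc2 (0.982) and Tmem106b (0.981). For Nsf they were Dcaf13 (0.978) and Rnf103 (0.978), for Vamp2 Grina (0.974) and Pdlim7 (0.973), and for Syt1 Ggta1 (0.978) and Gli4 (0.961). These are the highest of many correlations over few arrays that share a spike-in level within a kind, and are given as a description. The rank correlations of the same pairs ran from 0.776 (Nsf with Rnf103) to 0.993 (Snap25 with Ndufc2). No member was among the 2 most alike genes of another.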

How the data were processed

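The deposited values are probe set signal intensities on a linear scale, made by the authors in Affymetrix's GCOS software, as the series' design text and processing notes name it. Its version and parameters: not given in the sources used here. RNA was amplified in 2 rounds, per the labels' protocols, a step that favours the 3′ end of transcripts. Trimmed means of the deposited intensities were 497 to 499, so the authors had scaled the arrays. Each array was rescaled here to a trimmed mean of 500 (2% off each end, 57 control probe sets left out), 16 was added and log2 taken. A fold here is on that scale and understates dim genes. Probe sets at or above the 40th percentile of mean log2 value (7.35) were tested in limma 3.58.1 (R 4.3.3) with enrichment set and agent in the model and an intensity trend. P-values were adjusted by Benjamini-Hochberg over 18625 probe sets at a threshold of 0.05. Single values were tested over 216 within-set arrangements. Where a gene had several tested probe sets, the brightest on average stood for it. No depth or scanner file was used, and the number of arrays limits the precision. The fit was tested on simulated data. Symbols came from the platform annotation (20826 probe sets with 1 symbol, 436 with several, 9780 with none), of which 20764 matched RefSeq GRCr8 by Entrez identifier and 0 changed.

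The members and lists were chosen with earlier results of these data known. Named genes are all probe sets of the 8 members, the 3 genes with the smallest p per wider list for agent and for set, and the 2 genes most like each member. Same-numbered samples were not treated as pairs in the main model. Their deviations from the set and group means had correlations of -0.03 (I), -0.03 (II) and -0.14 (III). With 2 samples per set and group, these values cannot decide whether same-numbered samples were paired in culture or processing.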

Additional observations from a re-analysis of the deposited data

Results flagged for a closer look

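Of 30 groups examined (15 probe sets, each in 6 vehicle and in 6 GnRH samples), 3 held a sample whose gap to its nearest neighbour exceeded 0.625 of the group's range on the log2 scale. Chance marks about 5% of such groups. Nsf 1372528_at was 107 in vehicle 3, where the other vehicle samples ran from 531 to 1168. Vamp2 1369974_at was 104 in GnRH 6, where the other GnRH samples ran from 413 to 883. Syt7 1370515_x_at was 269 in vehicle 4, where the other vehicle samples ran from 43.3 to 89.8, and this signal was under the background level of its array (336).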

How the results depend on the processing

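No member passed for GnRH against vehicle under any of 29 settings tried, which included the pseudocount, the filter, the scaling, the model terms, weights, each array left out and each set alone. With the replicate number as a block, 0 of 8 passed, the median over the 5 genes stayed at 0.15, and the Syt4 difference of 0.55 had an unadjusted p of 0.138. Over all probe sets 0 to 2 passed in these settings, against 1. The median over the member genes ran from -0.11 (without vehicle 3) to 0.52 with single arrays left out. It was 0.22 in set I alone, 1.10 in set II alone and -0.77 in set III alone. For the difference between sets, the count of members passing was 1 with a pseudocount of 64 or no filter, 2 with scaling to the median or with array weights, and 0 to 2 with single arrays left out. Over all probe sets, 1651, 1530 (of 31042), 3532 and 4529 passed in the first settings, in that order, against 1122 in the main fit. With single arrays left out 127 to 2332 passed. The smallest adjusted p of the moderated F test was 0.000983 (Syt4, array weights). For the response by set the count of members passing was 0 to 1. Signs turned as follows. Snap25 was -0.11 without vehicle 3, -0.02 without GnRH 4 and -0.77 in set III alone, and with single arrays left out it reached 0.44 (without vehicle 5). In set III alone Syt4 was -0.033, Nsf 1372528_at -0.16, Vamp2 1369974_at -1.12 and Nsf 1369689_at 0.12. In set I alone Vamp2 1371160_at was -0.23 and Nsf 1369690_at 0.48. Vamp2 1369974_at was -0.22 without vehicle 3, -0.04 without GnRH 3, -0.000236 without GnRH 5 and -0.13 without vehicle 3 and vehicle 5. With single arrays left out it reached 0.57 (without GnRH 6). Nsf 1369690_at was 0.23 with array weights and 0.08, 0.38 and 0.19 without vehicle 6, GnRH 4 and GnRH 6. With single arrays left out its lowest value was -0.70 (without GnRH 3). The cause was not tested. Scaling to the median moved the median of all tested probe sets from 0.04 to -0.06, and that of the member genes to 0.05. The study's rule, applied without the software's change calls, marked 6 probe sets without the pseudocount, Cplx2 being added as up. Signals under background limit Syt7, Stx1a and Cplx2 most.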
